A study of Mus musculus with 3 samples.

Results

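Sugar chains on secreted and surface proteins and on lipids are finished in the Golgi by families of glycosyltransferases and carbohydrate sulfotransferases. Described here are 93 gene rows of these families in sorted mouse mammary cells, out of 21786 protein-coding rows and 52661 rows in all. The members were the protein-coding genes whose symbol begins with St3gal, St6gal, St8sia, Fut, Gcnt, B3gnt, B4galt, B3galt, Galnt, Chst or Mgat. Chst2, Chst4, Fut7, Gcnt1 and St3gal6, which help to make ligands of L-selectin, were left out by the rule. The rule used names only and no measured value. The 93 rows carry 92 symbols, because St6galnac2 has 2 Ensembl identifiers that overlap on chromosome 11.

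RNA was sequenced in bulk from 3 populations, with 1 library for each, so no value has a replicate error and no test between populations could be made. Per the labels, all 3 populations were PROCR+, meaning positive for the protein C receptor, and all were EpCAM+ with high CD49f. The CD36+ library came from CD36+, PDPN- cells that the titles call Cdh5+. The double-negative library came from CD36-, PDPN- cells that the titles also call Cdh5+. The PDPN+ library came from CD36-, PDPN+ cells that the titles call Cdh5-. PDPN is podoplanin, and Cdh5 encodes the cadherin of endothelial junctions. The sources used here give no strain, age, genotype, number of mice or number of cells. The labels name 2 library kits and 2 sequencers without saying which served which library, so a difference in library preparation cannot be told apart from a difference between populations.

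The libraries held 67675778 (CD36+), 51138993 (double-negative) and 63871266 (PDPN+) estimated counts. Although the labels call all 3 populations mammary epithelial cells, 8 of 8 endothelial markers, Pecam1 and Cdh5 among them, exceeded their PDPN+ level by 4-fold or more in both other libraries. Their summed level was 6048 CPM in CD36+ cells, 4156 in double-negative cells and 133 in PDPN+ cells. The 8 basal epithelial markers, Trp63 and Krt14 among them, summed to 65.8, 274 and 6102 CPM in the same libraries, and all 8 were at least 4-fold lower in both of the first libraries. Luminal markers summed to 386, 291 and 653 CPM, fibroblast markers to 116, 61.1 and 611 CPM, pericyte markers to 259, 189 and 70.6 CPM, and immune markers to 17.1, 1.17 and 1.85 CPM. Rgs5 held most of the pericyte sum, at 241, 164 and 51.9 CPM. The median log2 ratio over the pericyte list was -1.30 for CD36+ and -5.32 for double-negative over PDPN+ cells. Krt8 and Krt18 held most of the luminal sum, and the medians over that list were 0.84 and -0.81 in the same comparisons. Among the markers at 0 counts were the basal Serpinb5 and Perp and the immune Cd3e in CD36+ cells, the immune Cd3e and Lyz2 and the pericyte Kcnj8 in double-negative cells, and the immune Lyz2 and Csf1r in PDPN+ cells. Of the genes of the sort, Epcam stood at 50.7, 104 and 560.1 CPM and Pdpn at 12.5, 32.3 and 830.2 CPM. Cd36 stood at 4766, 1523 and 45.1 CPM, so the library sorted as CD36- and PDPN- still held Cd36 transcript. The part of these cell-type differences in the enzyme differences below was not tested. In bulk RNA, fewer cells that make a transcript and less transcript per cell cannot be told apart.

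The enzymes act in sequence. GALNT enzymes place the first sugar of mucin-type O-glycans on proteins, and MGAT enzymes add the branches of N-glycans. B4GALT, B3GALT, B3GNT and GCNT enzymes lengthen and branch the antennae. FUT enzymes and the sialyltransferases (ST3GAL, ST6GAL, ST6GALNAC and ST8SIA) cap the ends with fucose and sialic acid, and CHST enzymes add sulfate to ends and to chondroitin or keratan chains. In blood vessels the caps take part in leukocyte adhesion and receptor turnover, and in epithelium the O-glycans dress mucins at the cell surface.

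Levels are given in CPM, counts scaled to library depth by TMM, to compare 1 gene between libraries, and in TPM, which allows for transcript length, to compare genes with each other. Of the 93 members, 35 reached 10 CPM in at least 1 library, and 12 reached it in all 3. A further 26 had their highest level from 1 to under 10 CPM, and 32 stayed under 1 CPM. Of the last, 18 had 3 or fewer counts in every library, and B3gnt4, Chst13 and Mgat4d had 0 in all 3. The members took 0.181% of the counts of the CD36+ library, 0.193% of the double-negative library and 0.120% of the PDPN+ library.

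**Figure D1:**
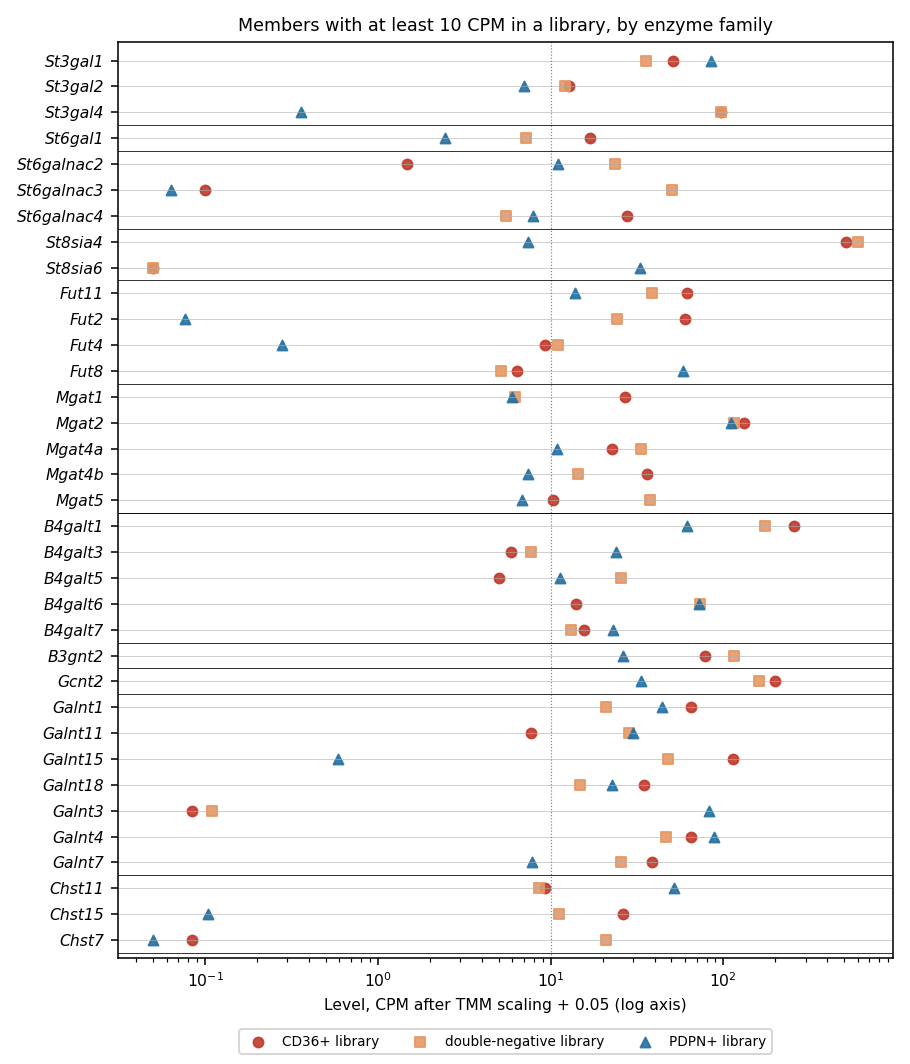
Level of each of the 35 members that reached 10 CPM in a library, in CPM plus 0.05 on a log axis, 1 row per gene and 1 point per library, with lines between enzyme families and a dotted line at 10 CPM. St8sia4 stands highest in the CD36+ and double-negative libraries, at 511 and 602 CPM, while Galnt3 and St8sia6 have at most 3 counts outside the PDPN+ library.

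The first question is how the populations named Cdh5+ differ from the PDPN+ population. Counted as differing were members with a ratio of 4-fold or more and, on the higher side, 10 CPM or more. In CD36+ cells 12 members were higher than in PDPN+ cells, 12.9% of all 93, against 5.89% of all protein-coding genes. In that comparison 7 members were lower, 7.53% of all 93, against 7.09% of protein-coding genes. Counted only among genes with at least 10 CPM in either library, 32 members entered, of which 37.5% were higher and 21.9% lower, against 14.8% and 17.8% of protein-coding genes. In double-negative cells 11 members were higher than in PDPN+ cells (11.8% of 93, against 5.64% of protein-coding genes) and 4 were lower (4.30%, against 7.91%). Among genes with at least 10 CPM in either library, again with 32 members, the shares were 34.4% and 12.5% of members, against 14.1% and 19.8% of protein-coding genes. The share of members higher was thus above that of all protein-coding genes in both comparisons, and the share lower was near it or below it. For the CD36+ library this split depends on the setting, since 7 members were higher and 8 lower with total counts, 6 and 6 with TPM, and 17 and 18 with a minimum of 1 CPM. The shares of protein-coding genes were not counted at these settings, so a change in the excess of members cannot be read from them. The PDPN+ library is shared by both comparisons, which makes them dependent. The median log2 ratio over all 93 members was 0 for the CD36+ and 0.05 for the double-negative library, and 0 over all protein-coding genes in both. The median size of the log2 ratio, without its sign, was 1.55 over members and 0.73 over protein-coding genes for the CD36+ library, and 1.11 and 0.82 for the double-negative library. These 2 sets differ in detection, since 19.4% of members and 27.8% of protein-coding genes had 3 or fewer counts in every library. At such counts the prior count pulls ratios toward 0, so the medians are not of like sets.

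Some members passed the rule in the same direction in both comparisons, which share the PDPN+ values, so the second call is no separate observation of those. Higher in both were St8sia4, St3gal4, Fut2, Galnt15, Gcnt2 and Chst15. Lower in both were St8sia6, Galnt3, Fut8 and Chst11. The 2 groups hold members of the same families: ST8SIA, FUT, GALNT and CHST each had 1 member on either side.

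Polysialic acid is a long chain of sialic acids that changes adhesion and receptor binding, and St8sia4 encodes 1 of the 2 enzymes that build it (chromosome 1, 95587682 to 95667571, minus strand of mm10). St8sia4 stood at 511 CPM in CD36+ cells, 602 in double-negative cells and 7.37 in PDPN+ cells, so the first 2 were close and the last was far lower. It was 69.3-fold higher in CD36+ than in PDPN+ cells (95% counting interval 63.7 to 75.6) and 81.7-fold higher in double-negative than in PDPN+ cells (75.0 to 89.1). By TPM it was the leading member in both, at 94.9 in CD36+ cells and 109 in double-negative cells, against 1.496 in PDPN+ cells. The other polysialyltransferase, St8sia2, went the other way, with 0 counts in CD36+ cells, 1 in double-negative cells and 622 in PDPN+ cells, where it stood at 8.41 CPM. St8sia6, which adds a second sialic acid mainly to O-glycans, had 0 counts in the CD36+ and double-negative libraries and 2431 in PDPN+ cells (32.9 CPM). It was at least 649-fold lower in CD36+ cells and at least 553-fold lower in double-negative cells, against a floor of 3 counts in the library without reads.

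St3gal4, which caps galactose with sialic acid on selectin ligands and on von Willebrand factor, stood at 97.1 CPM in CD36+ cells, 97.1 in double-negative cells and 0.311 in PDPN+ cells. Its ratio was 312 against PDPN+ cells in both comparisons (208 to 493). St3gal1, which caps the core of O-glycans, went the other way without passing the size rule, at 51.4 CPM in CD36+ cells and 35.7 in double-negative cells, against 84.7 in PDPN+ cells. St3gal2 stood at 12.7, 12.1 and 6.95 CPM in the CD36+, double-negative and PDPN+ libraries. St3gal3, which acts on N-glycans, had 0 counts in the CD36+ and double-negative libraries and 241 in PDPN+ cells (3.26 CPM). The ganglioside enzyme St3gal5 had 1, 0 and 14 counts in the same order. St6gal1, the main enzyme that adds the other linkage of sialic acid to N-glycans, stood at 16.9 CPM in CD36+ cells, 7.15 in double-negative cells and 2.39 in PDPN+ cells. St6gal1 was thus 7.06-fold higher in CD36+ cells (6.01 to 8.33) and 2.99-fold higher in double-negative cells (2.49 to 3.60). Its call in CD36+ cells does not pass with TPM, at 18.9 against 5.49.

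The DNA before the start of members that differed the same way in both comparisons is shown because the study's title names an E protein, TCF4, and its inhibitor ID3, and E proteins bind the E-box, CANNTG. Capitals mark each CANNTG, which reads the same on both strands, and the bases end at the RefSeq start or, for Galnt15 and St3gal4, where a GENCODE exon of the gene begins. The St3gal4 stretch lies inside the GENCODE gene, which begins at base 35119268 on the minus strand. DNA before that outermost start was not examined. St8sia4, St3gal4 and Galnt15 were higher in the CD36+ and double-negative libraries than in PDPN+ cells, and Chst11 was lower in both. The sequences are from RefSeq, build GRCm38.p6.
St8sia4, chr1:95667595-95667844, minus strand: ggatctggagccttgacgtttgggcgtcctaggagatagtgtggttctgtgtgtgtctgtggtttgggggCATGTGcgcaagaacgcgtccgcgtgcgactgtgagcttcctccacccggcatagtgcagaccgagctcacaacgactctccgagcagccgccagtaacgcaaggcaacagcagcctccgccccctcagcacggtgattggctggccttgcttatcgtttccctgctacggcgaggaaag
St3gal4, chr9:35116874-35117114, minus strand: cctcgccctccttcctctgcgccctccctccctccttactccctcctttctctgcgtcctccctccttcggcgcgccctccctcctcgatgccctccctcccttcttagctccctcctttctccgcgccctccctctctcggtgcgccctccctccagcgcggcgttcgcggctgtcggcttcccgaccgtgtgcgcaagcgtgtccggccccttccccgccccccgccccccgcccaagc
Galnt15, chr14:32028853-32028988, plus strand: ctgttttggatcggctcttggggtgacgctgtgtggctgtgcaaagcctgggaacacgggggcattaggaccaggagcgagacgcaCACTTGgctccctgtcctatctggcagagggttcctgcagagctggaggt
Chst11, chr10:82985247-82985496, plus strand: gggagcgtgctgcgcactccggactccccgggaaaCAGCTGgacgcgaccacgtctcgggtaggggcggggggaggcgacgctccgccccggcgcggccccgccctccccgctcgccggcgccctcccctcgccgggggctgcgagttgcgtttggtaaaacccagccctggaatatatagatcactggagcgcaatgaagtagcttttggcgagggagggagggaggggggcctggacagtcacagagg

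RefSeq windows were at hand for 70 of the 92 member symbols, and 6 of the 10 members that differed the same way in both comparisons had exactly 1. Over the 250 bases before the start, CANNTG occurred once in St8sia4, 0 times in St3gal4 and 2 times in Galnt15, of which 1 lies in the exon that is not shown. Among those lower, it occurred once in Chst11, 2 times in Galnt3 and 0 times in St8sia6. In the Galnt3 window a GENCODE exon of the gene begins after 49 bases, and both copies lie beyond that point. The St8sia6 window begins within such an exon, with 0 bases before it. Both copies in Galnt3 were of the form CAGGTG or CACCTG, which the other 5 windows lacked. Of 32851 RefSeq windows of the same length, 66.2% held CANNTG and 17.2% held CAGGTG or CACCTG. Windows with and without an E-box thus occurred among the higher and among the lower members.

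**Figure D2:**
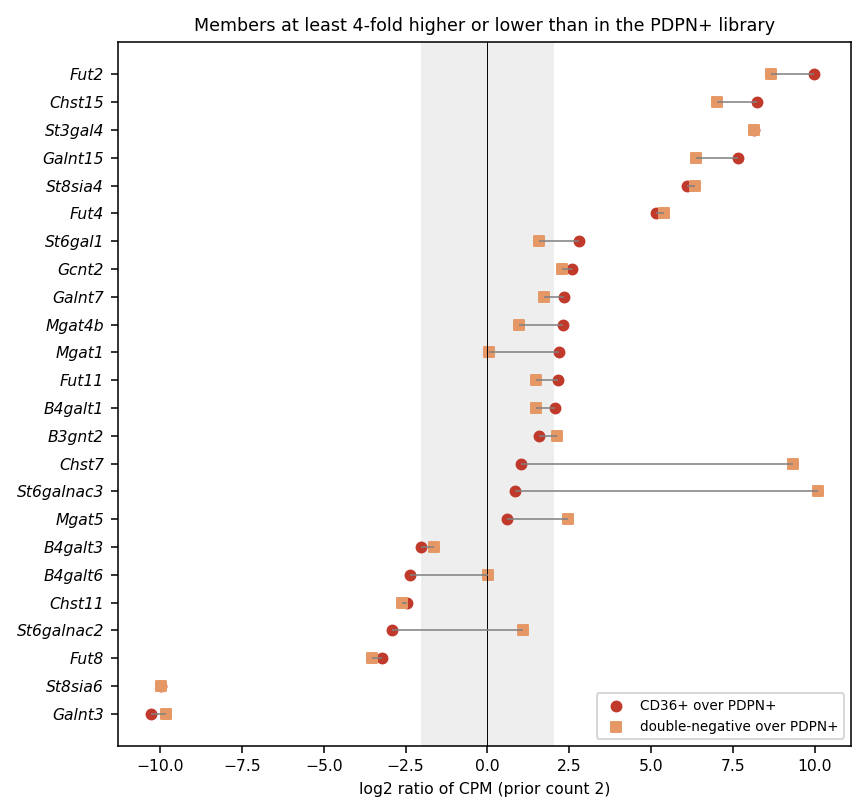
Log2 ratios (prior count of 2) of the 24 members at least 4-fold higher or lower in CD36+ cells (circles) or the double-negative library (squares) than in PDPN+ cells, joined by a line, with ratios under 4-fold shaded. Ratios of Fut2, Chst15, St3gal4, Galnt15 and St8sia4 lie far to the right in both comparisons, while Chst7 and St6galnac3 do so for the double-negative library only.

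Fucosyltransferases stood on both sides. Fut2, which adds the fucose of the H antigen in secretory epithelia, had 3561 counts in CD36+ cells, 1216 in double-negative cells and 2 in PDPN+ cells. These are 60.2, 24.1 and 0.0270 CPM, with ratios against PDPN+ cells of 2224 (615 to 18374) and 891 (246 to 7362). Fut1 encodes the enzyme that makes the same linkage in red cell precursors and endothelium of humans, and its gene lies 27.5 kb from Fut2 on chromosome 7. Fut1 had 6 counts in CD36+ cells, 5 in double-negative cells and 425 in PDPN+ cells, so the library with the least Fut2 held the most Fut1, although Fut1 at 5.75 CPM stayed under the level asked for a call.

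Fut4, an enzyme of the Lewis x antigen, stood at 9.29 CPM in CD36+ cells, 11.0 in double-negative cells and 0.230 in PDPN+ cells. It passed the rule in double-negative cells, where it was 47.9-fold higher (29.6 to 82.8), and was 40.4-fold higher in CD36+ cells (25.0 to 69.9), just under the minimum level. Fut9, which makes the same antigen, was lowest in CD36+ cells, with 3 counts, against 21 in double-negative cells and 262 in PDPN+ cells. Fut11 stood at 62.0, 38.5 and 13.8 CPM in the CD36+, double-negative and PDPN+ libraries, and passed the rule in CD36+ cells only, at 4.49-fold (4.19 to 4.82). Fut8, the enzyme of core fucose on N-glycans, stood at 6.32 CPM in CD36+ cells, 5.09 in double-negative cells and 58.8 in PDPN+ cells. Fut8 was 9.31-fold lower in CD36+ cells (8.37 to 10.4) and 11.6-fold lower in double-negative cells (10.2 to 13.2). Fut8, Fut1 and Fut9 were thus highest in PDPN+ cells, and Fut2, Fut4 and Fut11 were lowest there. Fut10 had at most 2 counts in any library.

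Of the 10 N-glycan branching genes, 0 were lower by the rule in any of the 3 comparisons. Of protein-coding genes, 7.09% were lower in CD36+ and 7.91% in double-negative than in PDPN+ cells. Between the CD36+ and double-negative libraries 4.12% were lower, so 0 of 10 is near these shares. Of the 10, 5 stayed under 10 CPM in all 3 libraries. Mgat2, which starts the second antenna, was within 1.19-fold across the libraries, at 133 CPM in CD36+ cells, 115 in double-negative cells and 111 in PDPN+ cells. Mgat1, which opens the whole complex pathway, stood at 26.9, 6.16 and 5.94 CPM in the same order and was 4.53-fold higher in CD36+ than in PDPN+ cells (4.07 to 5.05). Mgat4b, a branching enzyme, stood at 36.3, 14.3 and 7.37 CPM, 4.92-fold higher in CD36+ than in PDPN+ cells (4.48 to 5.42). Its paralogue Mgat4a stood at 22.6, 33.4 and 10.9 CPM. Mgat5, whose branch is bound by galectins, stood at 10.2 CPM in CD36+ cells, 37.5 in double-negative cells and 6.75 in PDPN+ cells. Mgat5 was 5.56-fold higher in double-negative than in PDPN+ cells (5.03 to 6.15). Both Mgat4b and Mgat5 were under 4-fold apart between CD36+ and double-negative cells. By TPM Mgat1 and Mgat4b did not pass against PDPN+ cells, and Mgat4a did in CD36+ cells. Mgat5, at 6.76 TPM in double-negative cells against 1.28 in PDPN+ cells, did not pass because it stayed under 10 TPM. Mgat3, the enzyme of the bisecting sugar, had at most 1 count, and Mgat4c, Mgat4d, Mgat4e and Mgat5b stayed under 1 CPM.

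Antenna lengthening was led by B4galt1, the main galactosyltransferase of N-glycans and the catalytic part of lactose synthase. B4galt1 stood at 256 CPM in CD36+ cells, 173 in double-negative cells and 61.6 in PDPN+ cells, 4.15-fold higher in CD36+ cells (4.02 to 4.29) and 2.81-fold higher in double-negative cells (2.71 to 2.92). B3gnt2, which alternates with it to build polylactosamine, stood at 78.9, 115 and 26.3 CPM and passed the rule in double-negative cells only, at 4.37-fold (4.15 to 4.60). Exons of B3gnt2 overlap Gm28048 on the same strand, to which 6984, 4171 and 852 counts were assigned, so the split of reads between them is uncertain. Gcnt2, which branches polylactosamine into the I antigen, stood at 199, 161 and 33.2 CPM, 5.98-fold higher in CD36+ cells (5.73 to 6.25) and 4.86-fold higher in double-negative cells (4.64 to 5.08). B4galt1, B3gnt2 and Gcnt2 were each lowest in PDPN+ cells, while B3gnt7, another enzyme of the B3gnt family, had 1, 1 and 139 counts and B4galt4 stood at 3.73, 0.931 and 8.69 CPM.

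Among the other galactosyltransferases, B4galt2, B4galt3, B4galt7, B3galt4 and B3galt6 were highest in PDPN+ cells. B4galt3, a further enzyme of this family, stood at 5.84 CPM in CD36+ cells, 7.70 in double-negative cells and 23.8 in PDPN+ cells, 4.07-fold lower in CD36+ cells (3.62 to 4.58). B4galt2 and B3galt4, a ganglioside enzyme, had 0 counts in the CD36+ and double-negative libraries and 306 and 325 in PDPN+ cells. B4galt7 and B3galt6, which build the linker of proteoglycan chains, stood at 15.5 and 5.95 CPM in CD36+ cells, 13.2 and 1.01 in double-negative cells and 22.9 and 9.60 in PDPN+ cells. Gcnt4, a branching enzyme of O-glycans, had 1 count in CD36+ cells, 1 in double-negative cells and 402 in PDPN+ cells. Read counts of B4galt2 are uncertain because its exons overlap Ccdc24 on the same strand, which had 0, 2 and 296 counts.

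Among the O-glycan starters, Galnt3 and Galnt15 stood on opposite sides. Galnt3, a starter of mucin O-glycans, had 2 counts in CD36+ cells, 3 in double-negative cells and 6103 in PDPN+ cells (82.5 CPM). Its level was 2443-fold lower in CD36+ cells (676 to 20174) and 1389-fold lower in double-negative cells (475 to 6736). Galnt15 had the reverse pattern, at 114 CPM in CD36+ cells, 47.8 in double-negative cells and 0.541 in PDPN+ cells, with ratios of 212 (155 to 296) and 88.3 (64.7 to 124). Galnt7, which extends sites that already carry a sugar, stood at 38.8, 25.6 and 7.72 CPM and passed the rule in CD36+ cells only (5.03-fold, 4.58 to 5.52).

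The broadly used starters differed less. Galnt1 stood at 65.1 CPM in CD36+ cells, 20.8 in double-negative cells and 44.1 in PDPN+ cells, and Galnt18 at 34.8, 14.8 and 22.7 CPM. Galnt4 stood at 65.3, 46.3 and 88.5 CPM, but its exons overlap Poc1b on the same strand, so its reads cannot be fully separated from those of that gene. Galnt2 likewise overlaps Gm20388 on the same strand, to which 1225, 725 and 3784 counts were assigned, against 245, 155 and 493 for Galnt2. Galnt16 had 22, 16 and 484 counts and Galnt10 had 0, 1 and 67 in the CD36+, double-negative and PDPN+ libraries, both highest in PDPN+ cells. The remaining Galnt members, apart from Galnt11, stayed under 4 CPM in every library.

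Among the sulfotransferases of chondroitin chains, Chst15 and Chst11 stood on opposite sides. Chst15, which makes the doubly sulfated unit of chondroitin sulfate E, had 1559 counts in CD36+ cells, 563 in double-negative cells and 4 in PDPN+ cells. These are 26.3, 11.2 and 0.0541 CPM, with ratios of 487 (189.8 to 1789) and 206 (80.1 to 759). Chst11, which sulfates chondroitin on its common position, stood at 9.29 CPM in CD36+ cells, 8.50 in double-negative cells and 51.7 in PDPN+ cells. Chst11 was 5.56-fold lower in CD36+ cells (5.08 to 6.09) and 6.08-fold lower in double-negative cells (5.502 to 6.73). Chst14, the dermatan sulfate enzyme, had 0 counts in CD36+ cells, 379 in double-negative cells and 383 in PDPN+ cells. Chst1, which sulfates galactose in keratan sulfate, stood at 8.68, 4.16 and 2.77 CPM. Chst8, Chst9, Chst12 and Chst13 had at most 2 counts in any library.

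Several members also overlap a gene on the opposite strand, and whether counting used strand is not known from the labels. Among the called ones, Ppox, opposite B4galt3, had 0, 568 and 1 counts, 1810032O08Rik, opposite St6galnac2, had 2449, 1027 and 2047, and 9530018F02Rik, opposite Fut8, had 0, 0 and 391 in the CD36+, double-negative and PDPN+ libraries. In addition, BC106179, opposite St6gal1, had 174, 83 and 161 counts, against 1000, 361 and 177 for St6gal1, and 4930581F22Rik, opposite St3gal4, had 0, 2 and 154, against 5751, 4902 and 23 for St3gal4. The levels of these 5 members are uncertain to that extent. The same holds for further called members. Opposite B3gnt2, 9130230N09Rik had 156, 3 and 3 counts, and opposite Gcnt2, A730081D07Rik had 22, 3 and 95. Opposite Galnt7, AW046200 had 68, 6 and 9 counts. Gm10584, opposite Chst15, had 0, 19 and 0, and Tmem163, opposite Mgat5, had 9, 4 and 7.

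These calls depend in part on the scaling. Of the 12 members higher in CD36+ cells, 7 passed under all 3 other scalings, and B4galt1, Fut11, Galnt7, Mgat1 and Mgat4b did not pass under total counts, where the count was 7. Of the 7 lower in CD36+ cells, B4galt3 and St6galnac2 did not pass under every other scaling, and of the 11 higher in double-negative cells B3gnt2 did not. By TPM, with a minimum of 10 TPM, 6 members were higher in CD36+ cells and 5 in double-negative cells. Chst15 in both comparisons, and Fut4, Galnt15 and Mgat5 in double-negative cells, did not pass only because they stayed under 10 TPM. The other lost members among the higher ones fell under 4-fold. Among the lower ones, B4galt3 and St8sia6 did not pass by TPM in CD36+ cells, nor St8sia6 in double-negative cells; St8sia6 reached only 8.47 TPM in PDPN+ cells.

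The second question is how the CD36+ and double-negative populations differ, since both carry the Cdh5+ title. Fewer members were apart here. In CD36+ cells 2 members were higher than in double-negative cells, 2.15% of all 93, against 4.58% of all protein-coding genes, and 5 were lower, 5.38% against 4.12%. Among genes with at least 10 CPM in either of the 2 libraries, 30 members entered, of which 6.67% were higher and 16.7% lower, against 12.3% and 11.0% of protein-coding genes. The higher ones were Mgat1 and St6galnac4, and the lower ones were St6galnac3, Chst7, St6galnac2, B4galt5 and B4galt6. The median log2 ratio of members was 0, as over all protein-coding genes. Of the 30, 14 were within 2-fold, St8sia4, St3gal4 and Mgat2 among them.

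**Figure D3:**
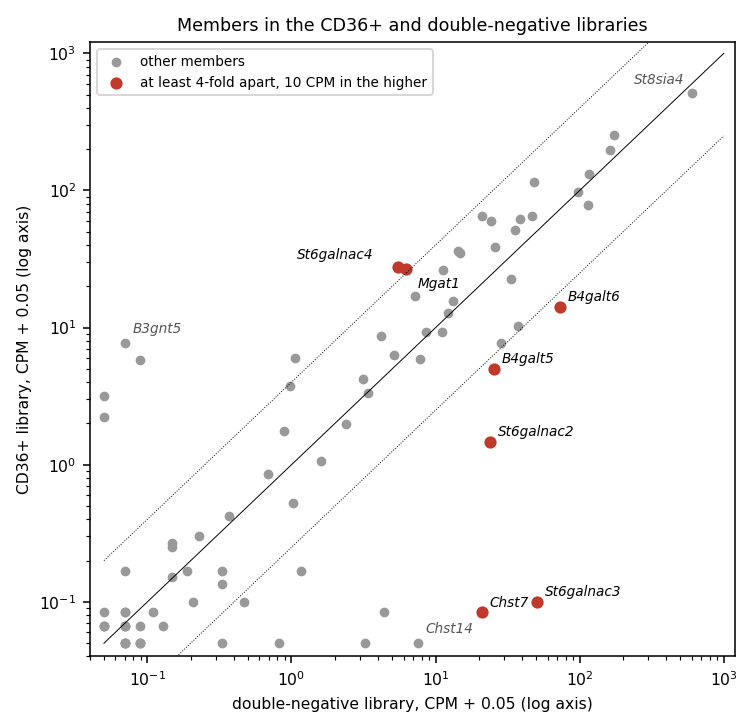
Level of each member in CD36+ cells (vertical) against the double-negative library (horizontal), both in CPM plus 0.05 on log axes, 1 point per member with counts in either, with a line of equal level and dotted lines at 4-fold. The 7 red members pass the size rule, and Chst7 and St6galnac3 lie at the bottom right because the CD36+ library held 2 and 3 counts of them.

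Of these 7 members, 3 encode St6galnac enzymes, which place sialic acid on the inner sugar of O-glycans. St6galnac3 had 3 counts in CD36+ cells, 2547 in double-negative cells (50.4 CPM) and 1 in PDPN+ cells. It was 995-fold lower in CD36+ than in double-negative cells (340.2 to 4830.2) and 3731-fold higher in double-negative than in PDPN+ cells (669 to 147415). St6galnac2, by its longer identifier, stood at 1.42 CPM in CD36+ cells, 23.7 in double-negative cells and 11.0 in PDPN+ cells, 16.7-fold lower in CD36+ than in double-negative cells (13.4 to 21.1) and 7.79-fold lower than in PDPN+ cells (6.21 to 9.87). The shorter St6galnac2 identifier held 0, 39 and 0 counts, and reads may be shared between both. St6galnac1, the enzyme of the sialyl-Tn antigen, had 2 counts in CD36+ cells, 220 in double-negative cells and 308 in PDPN+ cells. St6galnac4 was higher in CD36+ cells, at 27.6 CPM in CD36+ cells and 5.45 in double-negative cells, 5.06-fold higher in CD36+ cells (4.45 to 5.77), against 7.84 in PDPN+ cells. By TPM, at 9.90 in CD36+ cells against 3.08 in double-negative cells, St6galnac4 does not pass, and St6galnac2, at 0.562 against 8.27, does not either because it stays under 10 TPM. St8sia4 and St3gal4 were within 1.18-fold between the same libraries.

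The lactosylceramide enzymes B4galt5 and B4galt6, which start most glycolipids, were both lower in CD36+ cells. B4galt5 stood at 4.98 CPM in CD36+ cells, 25.4 in double-negative cells and 11.3 in PDPN+ cells, 5.10-fold lower in CD36+ than in double-negative cells (4.49 to 5.803). B4galt6 stood at 14.1, 72.9 and 72.6 CPM in the same order, 5.18-fold lower than in double-negative cells (4.80 to 5.59) and 5.16-fold lower than in PDPN+ cells (4.80 to 5.56). Chst7, a chondroitin sulfotransferase, had 2 counts in CD36+ cells, 1053 in double-negative cells (20.9 CPM) and 0 in PDPN+ cells, a ratio of 617 between the double-negative and CD36+ libraries (170.5 to 5104), and was at least 514-fold higher in double-negative than in PDPN+ cells. Mgat1 was 4.37-fold higher in CD36+ than in double-negative cells (3.86 to 4.95), but by TPM, at 12.8 against 3.62, it does not pass.

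Galnt11, another starter of O-glycans, was likewise lowest in CD36+ cells, at 7.69 CPM in CD36+ cells, 28.5 in double-negative cells and 30.045 in PDPN+ cells. It was 3.71-fold lower in CD36+ than in double-negative cells (3.34 to 4.13) and did not pass the rule. Of the 8 basal epithelial markers, 5 were at least 4-fold lower in CD36+ than in double-negative cells, and the list summed to 65.8 CPM in CD36+ cells and 274 CPM in double-negative cells. In the other direction, Krt5 was at 18.4 CPM in CD36+ cells and 3.03 CPM in double-negative cells, and Lama3 had 410 counts in CD36+ cells and 22 in double-negative cells, under the minimum level. The part of these markers in the result was not tested.

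Several members were read in 1 library and nearly missing from another. With at least 100 counts in 1 library and 3 or fewer in each other, 4 members stood alone in CD36+ cells, 3 in double-negative cells and 8 in PDPN+ cells. As shares of all 93 these are 4.30%, 3.23% and 8.60%, against 1.18%, 0.978% and 3.03% of protein-coding genes. In CD36+ cells they were B3gnt5, an enzyme that starts lacto-series glycolipids, with 457 counts, B3galt1 with 343, B3gnt6, the enzyme of the core 3 O-glycan, with 184, and B3gnt9 with 129. In double-negative cells they were St6galnac3, Chst7 and Chst5, an enzyme that sulfates N-acetylglucosamine, with 162. In PDPN+ cells they were Galnt3, St8sia6, St8sia2, Gcnt4, B3galt4, B4galt2, St3gal3 and B3gnt7, with 139 to 6103 counts. Conversely, St6galnac1 and Chst14 were missing from the CD36+ library alone, and Fut2 from the PDPN+ library alone, each with at least 100 counts in the other libraries. These are 2.15% and 1.08% of members, against 1.57% and 1.12% of protein-coding genes, and 0 members were missing from the double-negative library alone, against 2.06%. Between the 2 libraries with endothelial genes, 4 members had at least 100 counts in CD36+ cells and 3 or fewer in double-negative cells, and 5 the reverse, 4.30% and 5.38% of members against 3.68% and 2.90% of protein-coding genes. This threshold was chosen after the values were seen.

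Summed by family on the TPM scale, which sets genes side by side, the B4galt totals were close between libraries, but by CPM they were not. The B4galt family summed to 94.9 TPM in CD36+ cells, 94.0 in double-negative cells and 94.5 in PDPN+ cells. Within that sum B4galt1 made up 78.1%, 58.6% and 26.5%. By CPM the B4galt sums were 299.9, 293 and 205 in the same order. Mgat enzymes summed to 121, 95.8 and 92.8 TPM, led by Mgat2 in all 3. Galnt enzymes summed to 102 TPM in CD36+ cells, 73.0 in double-negative cells and 195 in PDPN+ cells, led by Galnt15, Galnt11 and Galnt3 in that order. By CPM the Galnt sums were 336, 194 and 295, so the highest library was PDPN+ by TPM and CD36+ by CPM. The 20 sialyltransferases summed to 197, 261 and 86.4 TPM, led by St8sia4 in the CD36+ and double-negative libraries (48.1% and 41.6% of the sum) and by St3gal1 in PDPN+ cells (40.3%).

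**Figure D4:**
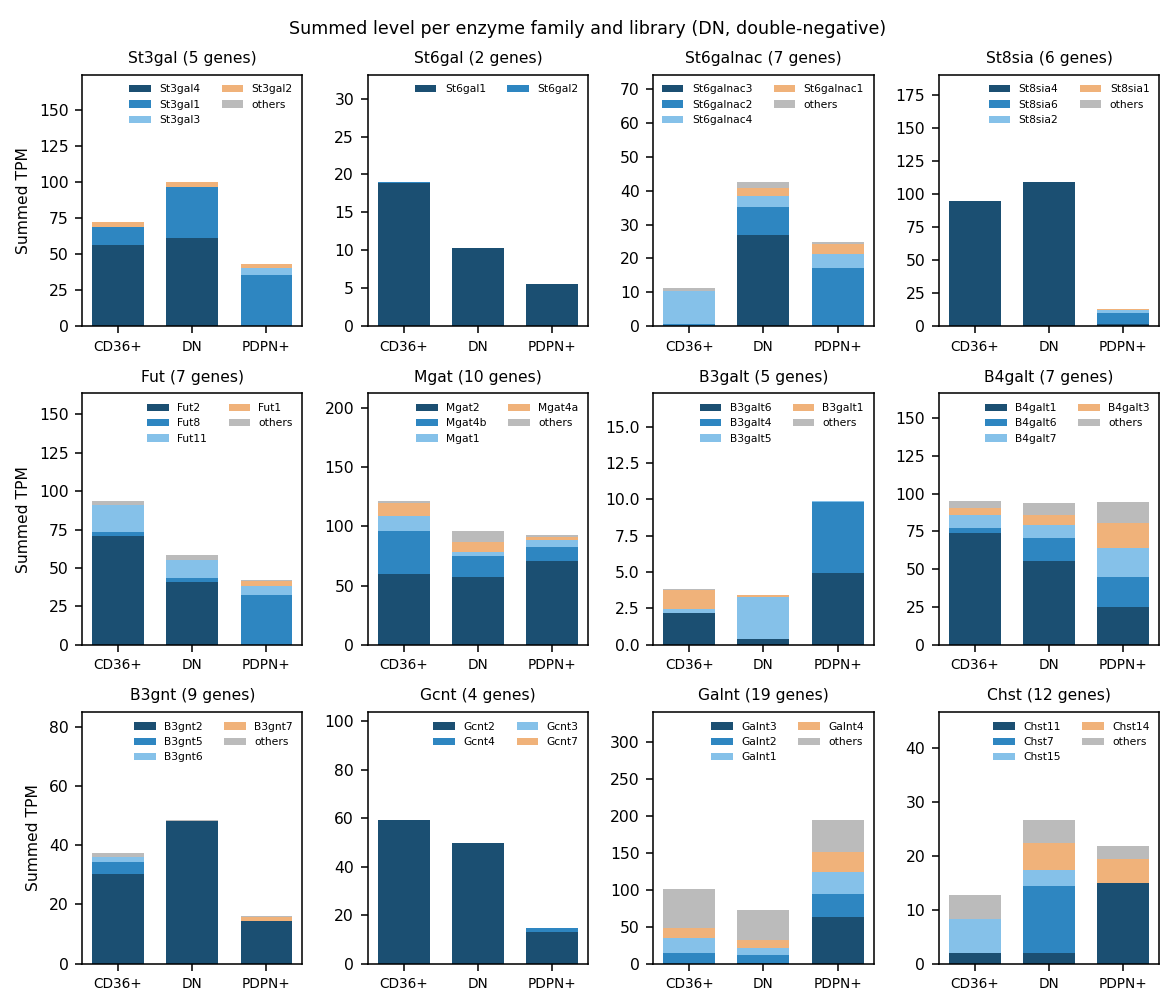
Summed TPM of each enzyme family in the CD36+, double-negative (DN) and PDPN+ libraries, stacked by the 4 members with the highest level in any library and the others together, each panel with its own axis from 0. The B4galt bars are nearly equal in height on this TPM scale while B4galt1 shrinks to 25.1 TPM in PDPN+ cells, and the St8sia bars are almost wholly St8sia4 in the first 2 libraries.

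Fut members summed to 93.4 TPM in CD36+ cells, 58.4 in double-negative cells and 42.4 in PDPN+ cells, with Fut2 at 76.1% and 69.6% in the first 2 and Fut8 at 76.9% in the last. Gcnt members summed to 59.2, 49.8 and 14.9 TPM in the same order, nearly all of it Gcnt2, which itself stood at 59.2, 49.7 and 13.0 TPM. Chst enzymes summed to 12.6, 26.6 and 21.7 TPM, led by Chst15 in CD36+ cells, Chst7 in double-negative cells and Chst11 in PDPN+ cells. St6galnac members summed to 11.1, 42.4 and 25.0 TPM, led by St6galnac4, St6galnac3 and St6galnac2 in that order. By CPM the order of the libraries was another for these families too, with Chst sums of 46.9, 56.9 and 61.3 CPM and St6galnac sums of 30.3, 86.4 and 24.2 CPM. B3galt members summed to 3.81, 3.43 and 9.88 TPM, with B3galt5 at 84.0% of the sum in double-negative cells and B3galt6 leading in the other libraries. Ranked by CPM instead, 5 of 36 leading members changed, with Fut11 in place of Fut2 in the CD36+ and double-negative libraries, Galnt15 and Galnt4 leading Galnt in the double-negative and PDPN+ libraries, and B4galt6 leading B4galt in PDPN+ cells. These family sums leave out the 5 genes excluded by the rule, and 1 of these, St3gal6, exceeded every member by TPM. It stood at 277 TPM in CD36+ cells and 320 in double-negative cells and had 0 counts in PDPN+ cells. In double-negative cells Chst4, Gcnt1 and Fut7 stood at 76.2, 70.3 and 41.5 TPM, while the CD36+ library held 1, 3 and 0 counts of them.

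Counts and TPM parted for a few members, beside mean transcript lengths that differed between libraries. For St3gal1 the deposited counts and TPM imply a mean effective transcript length of 4372 bases in CD36+ cells, 1233 in double-negative cells and 3750 in PDPN+ cells. St3gal1 was level between the double-negative and PDPN+ libraries by TPM, at 34.9 and 34.9, while its CPM was 2.37-fold lower in double-negative cells (2.25 to 2.50). For Mgat4a the implied lengths were 2312, 4818 and 7040 bases, and by TPM it stood at 10.7, 8.38 and 2.40. St6galnac2 had implied lengths of 3464 bases in double-negative cells and 994 in PDPN+ cells. Shifts of at least 2-fold touched 1 of 31 members in the CD36+ over PDPN+ comparison, 2 of 32 in the double-negative over PDPN+ comparison and 2 of 34 between the CD36+ and double-negative libraries. These shares of 3.23%, 6.25% and 5.88% lie near or below those of protein-coding genes, 6.79%, 7.07% and 7.22%.

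The supply of sugars and sulfate and the enzymes that compete for the same ends were examined in 71 further genes in 9 lists. In CD36+ cells 9 were higher and 6 lower than in PDPN+ cells, in double-negative cells 8 were higher and 10 lower, and between the CD36+ and double-negative libraries 8 were higher and 4 lower. The shares of all protein-coding genes, higher and lower, were 5.89% and 7.09% in the first comparison, 5.64% and 7.91% in the second and 4.58% and 4.12% in the last. The alpha-galactosyltransferase Ggta1, which competes with sialyltransferases for the same galactose, stood at 71.4 CPM in CD36+ cells and 59.4 in double-negative cells, against 0.162 in PDPN+ cells. The lysosomal sialidase Neu1, which removes sialic acid, stood at 62.3, 29.7 and 2.96 CPM. Of 6 genes of sialic acid synthesis and transport, 0 were apart by the rule between the CD36+ and PDPN+ libraries. Only 1, Cmah, was higher in double-negative than in PDPN+ cells, at 96.8 against 9.71 CPM. Gne, under the minimum level in all 3 libraries, had 467 counts in CD36+ cells, 0 in double-negative cells and 74 in PDPN+ cells. Nanp had 0, 0 and 3 counts in the same order. The sialic acid synthase gene Nans stood at 12.7, 42.2 and 14.1 CPM, and the transporter gene Slc35a1 at 22.9, 35.9 and 10.5 CPM, in the CD36+, double-negative and PDPN+ libraries.

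Of 6 sulfate supply genes, 1 was higher and 0 were lower in CD36+ than in PDPN+ cells, against 5.89% and 7.09% of protein-coding genes. In double-negative cells 2 were higher and 1 was lower than in PDPN+ cells, against 5.64% and 7.91%, and the lower one, the sulfate donor transporter gene Slc35b2, stood at 2.34 CPM against 16.4 CPM. Hs3st1, a heparan sulfotransferase that makes the antithrombin site, stood at 373 CPM in CD36+ cells, 194 in double-negative cells and 17.1 in PDPN+ cells. The tyrosine sulfotransferase Tpst2 stood at 114, 70.0 and 20.6 CPM. In the fucose supply list 4 of 7 genes were at least 4-fold higher in CD36+ than in double-negative cells, and 0 were lower, against 4.58% and 4.12% of protein-coding genes. These 4 were Fpgt, Slc35c1, Pofut1 and Pofut2. Pofut1 and Pofut2 encode enzymes that attach fucose to proteins, so they use fucose rather than supply it. The 2 of that list with the highest TPM were not among these 4. Gmds stood at 27.4 and 37.2 CPM and Tsta3 at 4.10 and 8.89 CPM in the CD36+ and double-negative libraries. The GlcNAc supply gene Uap1 was abundant in all 3 libraries, at 1212 CPM in CD36+ cells, 1177 in double-negative cells and 653 in PDPN+ cells. Of the 9 genes of galactose and hexosamine supply, 0 were higher and 1 lower in CD36+ than in PDPN+ cells, against 5.89% and 7.09%. Against double-negative cells 0 were higher and 2 lower, against 4.58% and 4.12%. The 1 was Gfpt2, at 54.0 CPM in CD36+ and 270 in PDPN+ cells. The 2 were Galk1 and Galt, with 0 counts in CD36+ cells and 523 and 723 in double-negative cells. The O-glycan chaperone gene C1galt1c1 stood at 60.5, 38.5 and 40.0 CPM, within 1.57-fold between the CD36+ and double-negative libraries. Other genes of that list differed more. C1galt1 stood at 7.64, 30.4 and 131 CPM, lower by the rule than in PDPN+ cells in both comparisons. B3galnt2 had 2550, 1 and 7216 counts and was lower by the rule in double-negative than in PDPN+ cells. B3galnt1 had 135, 788 and 0 counts and was higher by the rule in double-negative than in PDPN+ cells.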

How the data were processed

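Bulk RNA sequencing was done on 3 sorted populations, 1 library each, grouped by the surface markers in the labels. For every library the authors deposited estimated counts and TPM by gene, made with Salmon 0.9.1 on mm10, per the submitters' processing notes. Not given in the sources used here are the annotation release, strand setting and read filters. Per the file headers, the tables also give gene lengths (unit: other, in bases). These lay within 5% of the length that the deposited counts and TPM imply for 26.3% to 26.6% of genes with over 100 counts, so lengths were instead derived from counts divided by TPM.

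Estimated counts were rounded. Symbols came from GENCODE M21, which matched 52566 of 52661 identifiers without the version suffix. Unmatched rows held at most 0.00811% of counts. TMM factors came from edgeR 4.0.16 in R 4.3.3. Log2 ratios used a prior count of 2. Folds carry exact (Clopper-Pearson) 95% intervals, which, like the floor of 3 counts (0.0507 CPM for CD36+, 0.0594 for double-negative and 0.0406 for PDPN+ cells), cover counting error only, since reads without molecular identifiers may be PCR copies. With 1 library per group there is no test and no p-value. Alternatives were other scalings (with DESeq2 1.42.0 size factors as 1 of them), TPM with 0.05 added, other minimum levels, folds and prior counts. Ratios and calls were tested on simulated data. Python 3.11.15, numpy 2.4.6, pandas 2.3.3, scipy 1.17.1 and matplotlib 3.10.9 were used. Named were the members at least 4-fold apart in any comparison and the leading member of each family in each library. Further members were named as examples. From each further list up to 2 genes with the highest mean TPM were named. In the sialic acid, sulfate supply and O-glycan core lists, genes that passed the rule against PDPN+ cells were named too. In the fucose supply list and the galactose and hexosamine supply list, genes that passed between the CD36+ and double-negative libraries were named too. Gne and Nanp were named as further examples. Members, lists and rules were chosen with earlier results of these data known.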

Additional observations from a re-analysis of the deposited data

How the results depend on the processing

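Of the members higher in CD36+ than in PDPN+ cells, 12 by TMM scaling became 7 with total counts and 6 with TPM, and the 7 lower became 18 with a minimum of 1 CPM and 20 with only 10 counts asked. Of the members higher in double-negative than in PDPN+ cells, 11 became 5 with TPM and 17 at a 2-fold threshold. The 4 lower became 15 with 1 CPM, 18 with 10 counts and 7 at 2-fold. Between the CD36+ and double-negative libraries, the 2 higher became 1 with total counts, 0 with TPM, 7 with 1 CPM, 7 with 10 counts and 9 at 2-fold, and the 5 lower became 3 with TPM, 9 with 1 CPM and 12 with 10 counts. Upper quartile and DESeq2 scaling and a prior count of 0.5 left each of these 6 counts within 1.5 times. Of the log2 ratios of named members under these settings, 147 moved beyond their counting interval and 243 did not. In the comparisons where a member passed the rule, its log2 ratio kept its sign under each scaling and with TPM. Elsewhere signs turned, as for St6galnac2 in double-negative over PDPN+ cells (1.10 by TMM, -1.05 by TPM) and Mgat1 in the same comparison (0.05, and -0.18 with total counts and -0.66 by TPM). Relative to TMM, total counts moved the log2 ratios by -0.40 in the CD36+ over PDPN+ comparison, -0.23 in the double-negative over PDPN+ comparison and -0.17 between the CD36+ and double-negative libraries. Upper quartile scaling moved the first 2 by 0.27 and 0.28. Over all genes of the tables, at the main setting, the background shares were smaller, 2.03% to 3.48%. Shares of protein-coding genes were not counted at the other settings, so the counts of members there have no background beside them. No replicate could be left out, and no paired analysis was possible because each population has 1 library. Folds against libraries with few counts rest on those counts.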
